A study of Mus musculus with 2 samples.

Results

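miR-9 is a microRNA (miRNA), a small RNA of about the length of the reads printed here that guides silencing proteins to messenger RNAs. Both strands of its hairpin were followed, the 5′ arm miR-9-5p and the 3′ arm miR-9-3p. They were taken by name and are 2 of the 1358 mature miRNAs listed. Each arm matched 1 row in the count table, in the table of CPM (counts scaled to a common library size) and in the table of most frequent reads. Small RNA was sequenced in 2 libraries of newborn retina (postnatal day 0). The mice were wild type and of the outbred strain CD-1. The libraries were numbered replicate 1 and replicate 2 and formed a single group. No treatment or mutant was measured. The labels do not say whether the replicates came from separate animals, so the spread between these 2 libraries may be technical. Every p-value here sets a difference against counting error alone and does not measure that spread.

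A miRNA hairpin is cut first by Drosha in the nucleus and then by Dicer in the cytoplasm, which leaves a duplex of both arms. One strand is usually kept by an Argonaute protein and the other is mostly discarded. The bases next to the 5′ end of the kept strand, the seed, do most of the pairing with targets, so a strand that starts at another base has another seed. miR-9 is known from neural progenitors and neurons, and in the developing retina it is known, with let-7 and miR-125, for its part in the timing by which progenitors move from early-born to late-born cell types. In neural cells both arms have known targets in the REST pathway, which holds neuronal genes silent elsewhere.

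The mature sequences and the most frequent reads are shown because the arms differed in where their reads began. Each is written 5′ to 3′ with the seed, bases 2 to 8, in capitals. The annotated sequences are those of RefSeq (GRCm38.p6), written with U. The reads are those of the deposited table, written with T, and each was the same in both libraries.
miR-9-5p annotated: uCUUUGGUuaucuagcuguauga
miR-9-5p read: tCTTTGGTtatctagctgtatg
miR-9-3p annotated: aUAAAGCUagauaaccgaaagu
miR-9-3p read: tAAAGCTAgataaccgaaagta

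The miR-9-5p read began at the annotated first base and ended 1 base earlier, so it had 22 nt against 23 nt and the annotated seed. The miR-9-3p read was shifted as a whole. It began 1 base later and ended 1 base later than the annotated arm, both with 22 nt. The seed of this read was therefore AAAGCTA, where the annotated arm has UAAAGCU. The table gives only the most frequent sequence, without its share of the reads, so how many miR-9-3p molecules carried each seed is not known.

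A shifted start was uncommon among abundant miRNAs. Of the 74 miRNAs with a mean of at least 1000 CPM, 3 had the same shifted start in both libraries (4.05%), all of them 3p arms, and miR-9-3p was the highest of these. Among the 180 miRNAs at 100 CPM or more there were 11, of which 6 began 1 base later, as miR-9-3p did. No other miRNA of the table had a most frequent read with the seed of the miR-9-5p read, of the miR-9-3p read or of the annotated miR-9-3p. No other of the 1679 RefSeq mature miRNA names shared these seeds either.

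A set of 3 genes encodes miR-9, and their hairpins are shown to place the reads and to show where the copies differ. In these RefSeq hairpins (GRCm38.p6, plus strand) the capitals mark the most frequent read of each arm.
Mir9-1: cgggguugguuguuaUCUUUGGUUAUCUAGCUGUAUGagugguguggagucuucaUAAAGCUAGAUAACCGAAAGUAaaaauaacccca
Mir9-2: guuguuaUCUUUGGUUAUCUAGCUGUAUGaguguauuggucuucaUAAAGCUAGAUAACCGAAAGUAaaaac
Mir9-3: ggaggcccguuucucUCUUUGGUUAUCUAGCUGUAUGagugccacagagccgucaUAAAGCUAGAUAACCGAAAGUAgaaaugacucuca

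Mir9-1 lies at chr3:88215598-88215686, in an intron of all 5 overlapping transcripts of the lincRNA Gm3764 in GENCODE M21. Mir9-2 lies at chr13:83738814-83738885 and overlaps an exon in 2 and an intron in 1 of the 3 overlapping transcripts of the lincRNA C130071C03Rik. Mir9-3 lies at chr7:79505264-79505353, in an intron of all 4 overlapping transcripts of its host Mir9-3hg. Both reads fitted every hairpin exactly and at a single place in each, so neither count can be assigned to a gene. The stretch between the reads was 18 nt in Mir9-1 and Mir9-3 and 16 nt in Mir9-2, and all differences between the copies from the first base of the 5p read to the last base of the 3p read lay there. In that stretch Mir9-1 was 4 edits from Mir9-2, and Mir9-3 was 7 edits from each of the others. The final A of the miR-9-3p read is encoded in all 3 hairpins.

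**Figure D1:**
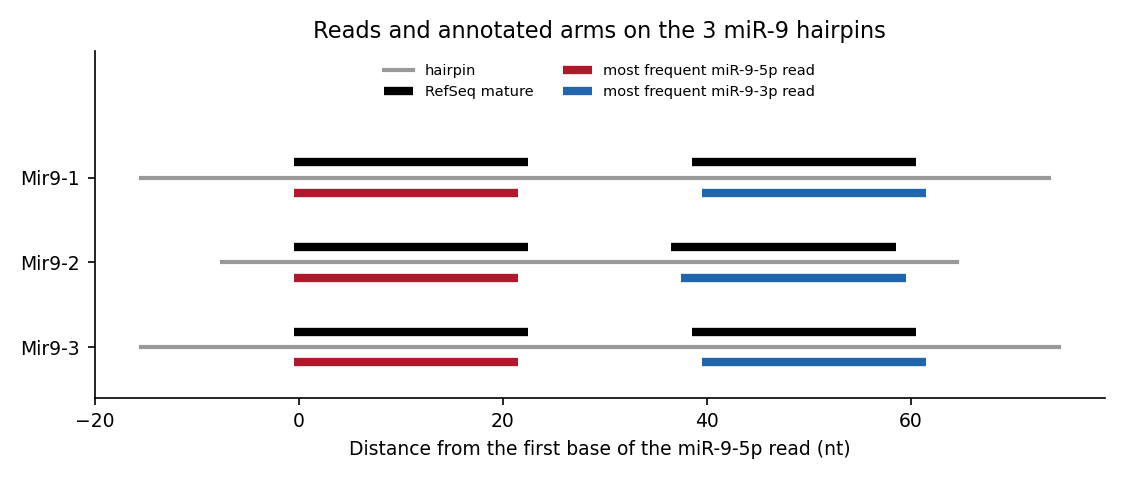
The annotated arms (black) and the most frequent reads (red for miR-9-5p, blue for miR-9-3p) are drawn on the 3 hairpins (grey), with the distance from the first base of the miR-9-5p read in nt on the horizontal axis. On each hairpin the red bar starts with the annotated arm and ends 1 nt before it, and the blue bar is shifted by 1 nt at both ends.

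The arms are partly complementary, as the strands of a duplex are. The longest stretch of the miR-9-3p read that is the reverse complement of part of the miR-9-5p read spans 12 nt, bases 4 to 15 of the former and bases 6 to 17 of the latter. It is shown in capitals here, since it bears on telling the arms and their antisense copies apart.
miR-9-3p read: taaAGCTAGATAACCgaaagta
miR-9-5p read: tctttGGTTATCTAGCTgtatg
RefSeq also lists miR-9b, which is read from the opposite strand of the miR-9 genes. miR-9b-3p was the RefSeq sequence nearest to the miR-9-3p read, at 4 edits, and miR-9b-5p the nearest to the miR-9-5p read, at 5 edits. miR-9b had no row among the listed miRNAs and was not analysed here. Within the table the nearest most frequent read to either arm was 8 edits away. An exchange of reads with other miRNAs was not tested. Both arms had whole-number counts in both libraries.

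The libraries held 8337902 and 8118208 counts, with 1041 and 1034 miRNAs above 0. The 4 miRNAs listed for retina and neurons were all detected and summed to 172209 and 191376 CPM. Most of this was miR-182-5p (102639 and 117489 CPM) and miR-183-5p (62340 and 67892 CPM). miR-96-5p was at 6529 and 5399 CPM and miR-124-3p at 701 and 597 CPM. Of the pair listed for the pigment epithelium, miR-204-5p, which other eye tissues also express, was at 3784 and 2994 CPM and miR-211-5p at 5.94 and 5.30 CPM. Those of muscle summed to 87.4 and 90.5 CPM, with miR-206-3p at 73.0 and 68.4 CPM. The liver miRNA was at 20.7 and 21.1 CPM, the red blood cell miRNA at 0.36 and 0.37 CPM, and the surface epithelium (miR-205-5p) and leukocyte (miR-223-3p) miRNAs were at 0, which allows up to 0.36 and 0.37 CPM (3 counts of each total). The share of miR-9 held by cells other than retinal ones was not tested.

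miR-9-5p was the most abundant miRNA in both libraries. It had 1884432 counts in replicate 1, or 226008 CPM (exact binomial 95% interval 225724 to 226292). In replicate 2 it had 1854127 counts, or 228391 CPM (228102 to 228680). Replicate 2 was thus slightly the higher, and this arm held 22.6% and 22.8% of all counts. Such intervals reflect the counting error of reads alone. Amplified copies of a molecule were not told apart, so the error in counting molecules may be larger. In whole retina, more miR-9 per cell and more cells that hold it cannot be told apart.

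miR-9-3p had 33817 counts in replicate 1, or 4056 CPM (4013 to 4099), and rank 28. In replicate 2 it had 29055 counts, or 3579 CPM (3538 to 3620), and rank 31. Replicate 1 was the higher and the counting intervals did not overlap. The mean of 3817 ± 337 CPM (SD, n = 2) put this arm at rank 30, within the top 2.21% of listed miRNAs. Both arms together held 23.1% ± 0.135 of all counts, and miR-9-3p held 0.494% ± 0.0426 of the counts outside miR-9-5p.

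The miRNAs next in rank of mean CPM over the 2 libraries set both arms in context. For miR-9-5p these were miR-182-5p and miR-183-5p of the sensory-organ cluster, let-7i-5p and miR-26a-5p. Their absolute difference from it in mean log2 CPM was 1.05 to 1.80. Its CPM was higher than that of each of the 4 in both libraries, by a mean log2 ratio of counts from 1.05 ± 0.13 for miR-182-5p to 1.80 ± 0.08 for miR-183-5p. Since these 4 were taken as the ranks below it, their calls add nothing to the ranking. A difference between 2 miRNAs was called on the same sign in both libraries, an adjusted p under 0.05 in each (exact binomial test of equal counts, two-sided, Benjamini-Hochberg over 46 pairs) and a mean over 2 SD.

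miR-9-3p had close neighbours. miR-93-5p (4003 ± 53.3 CPM) and miR-541-5p (3952 ± 239 CPM) stood above it, and miR-872-5p (3494 ± 107 CPM) and miR-30e-3p (3401 ± 301 CPM) below. The log2 ratio of miR-9-3p over miR-93-5p was 0.01 in replicate 1 and -0.15 in replicate 2, and over miR-30e-3p it was 0.35 and -0.01. Neither sign held in both libraries. The ratios over miR-541-5p (-0.02 and -0.08) and miR-872-5p (0.18 and 0.07) kept their sign but had means within 2 SD. None of the 4 differences was called, so the place of miR-9-3p among these 4 neighbours is not settled. Each ratio between different miRNAs also holds the yield of adapter ligation, which differs between sequences.

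Against the other miRNAs linked to progenitor timing, miR-9-5p stood above all members and miR-9-3p within their range. The list held the 5p arms of let-7a, b, c, d, e, f, g and i with miR-125a-5p and miR-125b-5p, and its 10 members summed to 188428 ± 2602 CPM. Its median member was at 7950 CPM, against 0.73 CPM over all listed miRNAs. miR-9-5p alone had more counts than the list as a whole, with a log2 ratio of 0.28 in replicate 1 and 0.26 in replicate 2. As its top rank implies, it was above all 10 members, from a log2 ratio of 1.20 ± 0.05 for let-7i-5p to 7.27 ± 0.13 for miR-125b-5p.

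miR-9-3p was called lower than 7 and higher than 3 of the 10. It was below let-7i-5p by a log2 ratio of -4.70 ± 0.19 and below miR-125a-5p by -0.56 ± 0.12. It was above miR-125b-5p (1.37 ± 0.01), let-7e-5p (0.40 ± 0.11) and let-7b-5p (0.19 ± 0.005). The let-7 members differ from each other by few bases, and their counts were not whole numbers for 7 of the 8 in replicate 1 and all 8 in replicate 2.

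In a list of 9 neuronal miRNAs, miR-9-5p was above every member, as its top rank implies, and miR-9-3p was called higher than 7. The exceptions for miR-9-3p were miR-7a-5p, known from neurons and neuroendocrine cells (11493 ± 1192 CPM, log2 ratio -1.59 ± 0.28), and miR-128-3p, a brain-enriched miRNA (8041 ± 640 CPM, -1.08 ± 0.01). miR-124-3p, the leading miRNA of differentiated neurons, was at 649 ± 73.9 CPM. Even the lesser arm of miR-9 had more counts than miR-124-3p, by a log2 ratio of 2.53 in replicate 1 and 2.58 in replicate 2. The whole list summed to 23769 ± 309 CPM, below miR-9-5p by 3.26 ± 0.01 on the log2 scale.

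**Figure D2:**
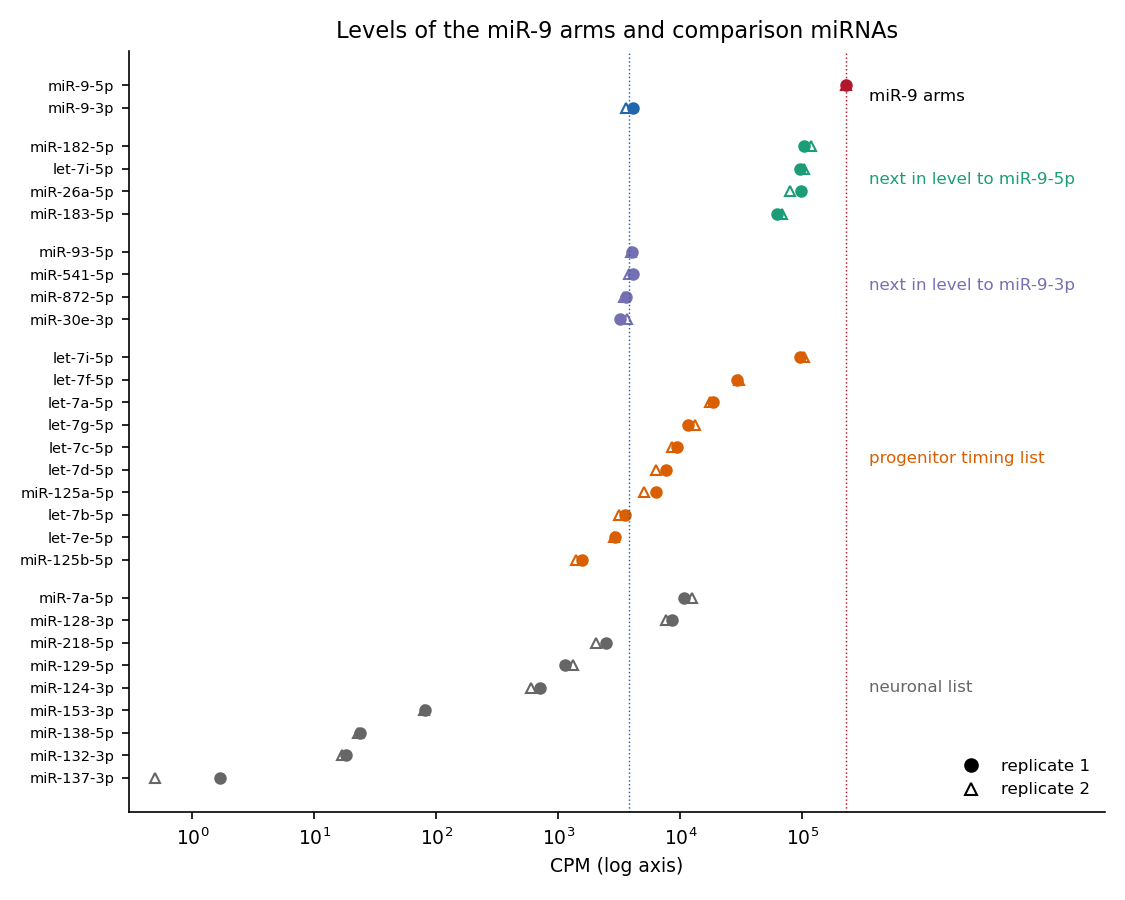
CPM is shown on a log axis in replicate 1 (filled circles) and replicate 2 (open triangles). The rows are the miR-9 arms, the 4 miRNAs next to each arm in rank of mean CPM and the lists for progenitor timing and neurons. Dotted lines mark the mean of each arm, and miR-9-5p at 227200 CPM lies to the right of every other miRNA while miR-9-3p at 3817 CPM falls among its 4 neighbours.

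Far more counts came from the 5′ arm. The arms of a hairpin differ in sequence, so each arm ratio and 3p share here also holds the yield of adapter ligation. Of the counts of both arms, miR-9-3p made up 1.76% in replicate 1 (exact binomial 95% interval 1.74 to 1.78) and 1.54% in replicate 2 (1.53 to 1.56). miR-9-5p exceeded it 55.7-fold in replicate 1 and 63.8-fold in replicate 2. The mean log2 ratio of 5p over 3p counts was 5.90 ± 0.14 (SD, n = 2, 0.5 added to each count), over 2 SD, and the binomial p was too small to be held as a number in either library. The arm difference was called, as it was for 89.4% of the 312 hairpins tested, those with a row for each arm and 10 counts or more in each library, and 46.2% were called with the 5p arm higher. The call itself is thus common among hairpins. A hairpin was tested only where its 5p and 3p rows had the same name apart from the arm. Hairpins with a copy number in the name of 1 arm, such as miR-26a, let-7a and miR-181a, were left out. They are missing from all counts and ranks of hairpins.

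The arm ratio of miR-9 was lower than in most of the tested abundant hairpins that favour the 5p arm. Of the 55 hairpins whose arms summed to 1000 CPM or more, 35 had more of the 5p arm, with a median log2 ratio of 8.01. miR-9 was 26th of these 35, with 9 hairpins giving a larger 3p share in both libraries. The hairpins next to it in arm ratio were let-7e (6.38 ± 0.31) and miR-125a (6.18 ± 0.29) above and miR-379 (5.50 ± 0.16) and miR-17 (5.27 ± 0.06) below. The SDs of miR-9 and miR-125a overlap.

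The hairpins of miR-26a were not tested, although miR-26a-5p had a mean of 87684 CPM against 65116 CPM for miR-183-5p. Of the 312 hairpins tested, the next 3 in total counts after miR-9 had a smaller share of the 3p arm. They were singled out after their values were seen. The 3p share was 0.316% and 0.236% for miR-182, 0.077% and 0.059% for miR-183 and 0.0071% and 0.0075% for let-7i in replicates 1 and 2. Their log2 arm ratios exceeded that of miR-9 by 2.61 ± 0.16, 4.62 ± 0.13 and 7.83 ± 0.19. Each of these differences was far over 2 SD, and Fisher's exact test of arm by hairpin gave a p too small to be held as a number in both libraries.

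miR-9-3p was the highest of the lesser arms of the 312 hairpins. Hairpins were taken by name, and the miR-9 entry pools all of its genes, so this rank is not that of a single gene. The following lesser arms were miR-30e-5p at 2483 and 2334 CPM in replicates 1 and 2 and miR-30a-3p at 1927 and 2271 CPM. The lowest value of miR-9-3p, 3579 CPM, was above all of these. In those hairpins the counts of the arms were more even, with a log2 ratio of -0.50 ± 0.19 for miR-30e and 1.54 ± 0.03 for miR-30a. In 293 of the 312 hairpins, the greater arm was itself below miR-9-3p. These lesser arms were also singled out after their values were seen.

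**Figure D3:**
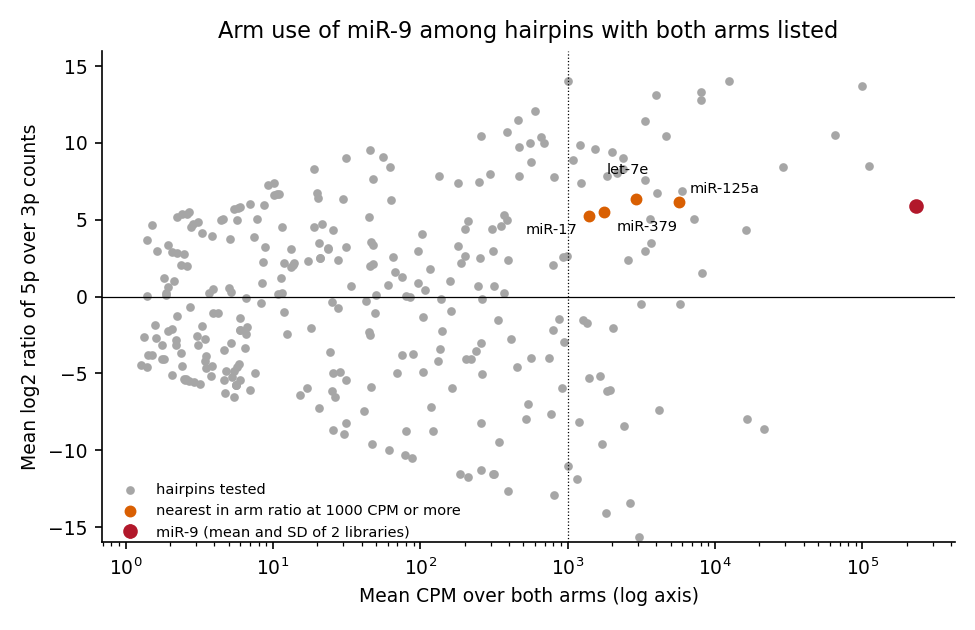
Each point is a hairpin name, and that of miR-9 pools all of its genes. The mean CPM over both arms is on a log axis and the mean log2 ratio of 5p over 3p counts on the vertical axis. miR-9 (red, its SD smaller than the marker) lies farthest to the right at a log2 ratio of 5.90, between let-7e and miR-125a above and miR-379 and miR-17 below (orange), and the dotted line marks 1000 CPM.

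Between the libraries the arms moved in opposite directions. Scaled by the table totals, miR-9-5p was higher in replicate 2 by a log2 ratio of 0.015 (adjusted p = 4.64e-23, exact two-sided binomial test with Benjamini-Hochberg adjustment). miR-9-3p was lower in replicate 2 by a log2 ratio of -0.18 (adjusted p = 7.89e-54, same exact test). Both were called, as were 27.7% of the 710 miRNAs tested (8.17% higher and 19.6% lower in replicate 2) and 140 of the 180 with a mean of 100 CPM or more. At this depth the test calls very small differences, since the counting error was 0.073% for miR-9-5p and at most 0.587% for miR-9-3p. The coefficient of variation (CV) between the libraries, scaled by the table totals, was 0.742% for miR-9-5p and 8.83% for miR-9-3p. The spread beyond counting error over the tested miRNAs was a CV of 10.4% in edgeR. That value was estimated after TMM, edgeR's trimmed mean scaling, so the CVs of the arms are not on its scale. By TMM the absolute log2 ratio was larger for miR-9-5p (0.14) than for miR-9-3p (-0.06). Which arm was the steadier thus depends on the scaling.

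The scaling set the size of these differences and not their direction. Over the tested miRNAs the median log2 ratio was -0.12 with table totals, against -0.002 with TMM, edgeR's trimmed mean scaling, and -0.02 with DESeq2 size factors. Relative to that median, miR-9-5p was 0.14 higher and miR-9-3p was lower, at -0.06, in replicate 2 under each scaling. By TMM the log2 ratios were 0.14 and -0.06, and by DESeq2 size factors 0.12 and -0.08. All were called, as were 26.1% of the miRNAs tested by TMM and 26.3% by DESeq2 size factors. By table totals, a smaller absolute ratio than that of miR-9-5p was found in 7 of these 180 miRNAs, and by TMM in 81. The close match of miR-9-5p between the libraries thus holds for its share of all counts and not relative to the other miRNAs.

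The arm ratio does not depend on scaling. It was higher in replicate 2 by 0.20 on the log2 scale (adjusted p = 5.00e-61, two-sided Fisher's exact test of arm by library). Such a difference was called in 8.65% of the 312 hairpins and in 14 of the 55 with at least 1000 CPM (25.5%). Among these 55 the median absolute difference was 0.22, and 23 had a smaller one than miR-9. The change in the miR-9 arm ratio was thus beyond counting error but of the size that abundant hairpins had between these libraries.

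**Figure D4:**
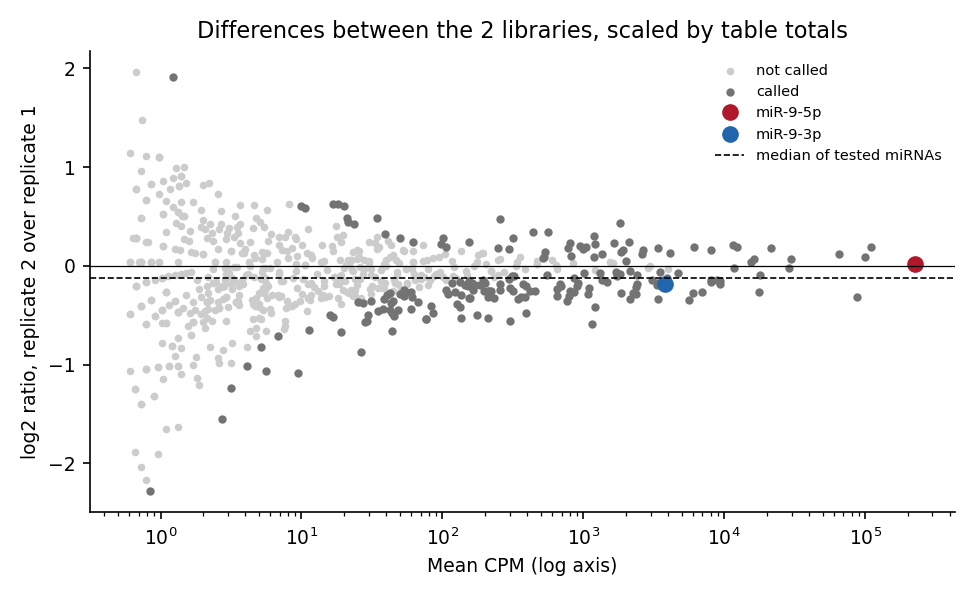
The log2 ratio of replicate 2 over replicate 1, scaled by table totals, is plotted against mean CPM on a log axis for the 710 miRNAs tested, with called miRNAs in dark grey. miR-9-5p (red) lies at 0.015, just above the line at 0, and miR-9-3p (blue) at -0.18, below the dashed median of -0.12.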

How the data were processed

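Per the labels' protocols, small RNA of 18 to 30 nt was cut from a gel and made into libraries by adapter ligation. The submitters' processing notes name bcl2fastq 2.17.1.14. Not given in the sources used here are the aligner, counter, genome build and mismatch settings. The deposited count table holds estimated counts, unscaled, of which 6.77% and 5.96% of values are not whole, so they were rounded for tests. The deposited CPM values were scaled by the authors to a total larger than the rows here sum to, of which these rows make up 88.5%. The third table is text, the most frequent read of each miRNA marked against miRBase 21, per the file headers; marks were taken off before reads were matched to RefSeq.

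CPM here is the count over the table total. Tests were exact binomial and Fisher's exact tests with Benjamini-Hochberg adjustment at 0.05, run over all miRNAs or hairpins with at least 10 counts. edgeR's quasi-likelihood test needs 2 groups and was not run. Named miRNAs were both arms, the 4 next to each in rank of mean CPM, the 2 hairpins above and below in arm ratio and the lists. Any with a shared seed or a read within 3 edits was also to be named. Up to 4 members of a list were to be named by level, and members at the ends of a list's range are also named. Marker miRNAs were named where at 0, and members of a list where few of them held most of its sum. Members and lists were chosen with earlier results of these data known. Alternatives were TMM and DESeq2 scaling, the deposited CPM, other count minimums and additions, and each library alone. Tools were SciPy 1.17.1, pandas 2.3.3, NumPy 2.4.6 and matplotlib 3.10.9 in Python 3.11.15, and edgeR 4.0.16 and DESeq2 1.42.0 in R 4.3.3.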

Additional observations from a re-analysis of the deposited data

How the results depend on the processing

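Of 48 values recomputed under alternatives, 44 kept their direction, their call or their size. Some of these could hardly have changed, so the 44 are not all separate checks. The calls of miR-9-5p above the lists and its neighbours follow from its top rank in both libraries. Another count minimum leaves the miR-9 ratios as they are, and a larger addition to each count is small against the counts of both arms. With the deposited CPM the mean level was 201118 CPM for miR-9-5p and 3379 CPM for miR-9-3p, lower by the construction of the larger total, and the arm ratio was the same. With each library alone, where the criterion of 2 SD falls away, the number of the 4 neighbours in level that miR-9-3p was called higher than was 1 without replicate 1 and 2 without replicate 2, against 0 with both. No paired analysis was possible because the series has a single group. With 2 libraries an SD is imprecise, and depth did not limit either arm. The read table limits what can be said of the miR-9-3p start, since it holds no share of reads.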
